A study of Mus musculus with 33 samples.

Results

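Integrins and cadherins, the receptor families through which cells hold on to matrix and to each other, were followed across the cell types of mouse colon stroma. All genes named Itga, Itgb or Cdh with a number or letter suffix were taken from the count matrices, which gave 49 of 31053 genes: 18 integrin alpha chains, 8 integrin beta chains and 23 cadherins. The choice used the names alone, and no member set a cell gate. The cadherin names also take in a few relatives outside the classical group, such as Cdh13, Cdh16, Cdh17 and Cdh23.

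Of the 33 samples in the series, the 3 single-cell libraries of colon were used here. The GFP-low libraries, replicates 1 and 2, came from adult PdgfraH2BeGFP mice (JAX strain 007669) of both sexes, which carry a nuclear GFP reporter at Pdgfra, with no treatment, and held unstained cells sorted for their GFP level (titled PdgfraLo, hence GFP-low here). The whole mesenchyme library, replicate 1, was labelled as genotype control with no treatment and held cells sorted as EpCAM- CD45-. In all 3 the outer muscle layer had been taken off, the epithelium shaken off in EDTA and the rest digested with collagenase, so the colon's thick muscle coat was not sampled. How many animals went into a library, and whether the GFP-low replicates came from separate animals, is not given in the sources used here. The p-values therefore measure the spread between these libraries, largely as pooled over all genes, and that spread may be technical.

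Integrins are pairs of an alpha and a beta chain; the alpha chain largely sets which matrix protein or cell surface ligand is bound, and the beta chain tail connects to talin, kindlin and the actin skeleton. The beta 1 chain pairs with the widest set of alpha chains and serves collagen, laminin and fibronectin receptors, while the alpha v chain pairs with several beta chains and binds vitronectin, fibronectin and latent TGF-beta. Classical cadherins bind the same cadherin on a neighbouring cell and connect to actin through catenins, and a cell type usually carries its own small set of them.

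Cells were kept with 1000 or more UMIs, 500 or more genes and no more than 20% mitochondrial UMIs. This left 6793 cells in whole mesenchyme and 4834 and 6025 in the GFP-low replicates, in number order, with median depths of 4429, 6446.5 and 7025 UMIs. Between 6 and 11 cell barcodes were shared by any pair of libraries and 0 by all 3. Cells were gated on panels of marker genes, and 15263 of the 17652 cells fell into a class. In whole mesenchyme the classes were 930 telocyte-like cells (Pdgfra-high cells that line the epithelium), 547 Cd81 fibroblasts, 2930 Adamdec1 fibroblasts, 164 smooth muscle cells or myofibroblasts, 67 pericytes, 736 blood endothelial cells, 56 lymphatic endothelial cells and 37 enteric glia. The GFP-low replicates held 3389 and 4268 Cd81 fibroblasts and 886 and 1116 Adamdec1 fibroblasts, 10 and 8 telocyte-like cells, and no enteric glia or lymphatic endothelium. Each panel was higher in its own class than in any other class of whole mesenchyme. Pericytes also carried the muscle panel at 10200 CPM, against 21900 CPM in muscle cells, and muscle and telocyte-like cells carried the Adamdec1 panel at 8590 and 10800 CPM, against 15100 CPM in Adamdec1 fibroblasts. In these sums, fewer cells that express a gene and less of it per cell cannot be told apart. A level is given as UMI counts scaled to a fixed library total (CPM, counts per 1e6 UMIs) summed over the cells of a class in a library. The 3' kit counts molecules by their ends, so no correction for gene length was made.

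The family made up 0.115% of the UMIs of the kept cells, and Itgb1 alone held 43.1% of the family's 117332 UMIs. Cdh8, Cdh12 and Cdh20 had 0 UMIs in all kept cells, which allows a level of up to 0.0294 CPM. A further 8 members stayed below 10 UMIs, among them Cdh1 (E-cadherin, the epithelial cadherin) with 3 UMIs and Cdh3 with 1 UMI, and the epithelial integrin chain Itgb6 had 3 UMIs. In the classes described here 30 members reached 10 UMIs in at least 1 class and 19 did not.

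Upstream sequences of 4 members are shown because these members separated the fibroblast classes in the test described below: Itga5 was higher in Cd81 fibroblasts, and Itga4, Itga1 and Itga2 were lower. Itga1 and Itga2 are neighbours on chromosome 13, on the same strand, with 170 kb between their start sites. The RefSeq promoter table (build GRCm38.p6, which is mm10) holds 31 of the 49 members; each entry runs from 250 bases before to 50 bases after a start site and is written in the direction of transcription. Capitals mark 4 motifs searched on both strands, GGAAG (an ETS-type core), ACAAAG (a SOX- or TCF-type core), TATAAA (the TATA box) and GGGCGG (the GC box). The stretches are chr15:103366742-103367041 (- strand) for Itga5, chr2:79255176-79255475 (+ strand) for Itga4, chr13:115101915-115102214 (- strand) for Itga1 and chr13:114932051-114932350 (- strand) for Itga2.
Itga5: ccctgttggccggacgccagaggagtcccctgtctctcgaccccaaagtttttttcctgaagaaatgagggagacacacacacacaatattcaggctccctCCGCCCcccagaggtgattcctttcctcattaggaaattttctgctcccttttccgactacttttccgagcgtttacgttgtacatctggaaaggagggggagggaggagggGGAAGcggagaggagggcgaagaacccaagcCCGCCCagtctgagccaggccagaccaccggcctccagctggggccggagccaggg
Itga4: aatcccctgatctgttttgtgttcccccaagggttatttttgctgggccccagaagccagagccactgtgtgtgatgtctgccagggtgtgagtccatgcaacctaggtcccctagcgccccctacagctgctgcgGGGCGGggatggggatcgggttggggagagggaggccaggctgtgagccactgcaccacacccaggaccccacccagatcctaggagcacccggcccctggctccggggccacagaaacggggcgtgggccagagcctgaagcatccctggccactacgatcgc
Itga1: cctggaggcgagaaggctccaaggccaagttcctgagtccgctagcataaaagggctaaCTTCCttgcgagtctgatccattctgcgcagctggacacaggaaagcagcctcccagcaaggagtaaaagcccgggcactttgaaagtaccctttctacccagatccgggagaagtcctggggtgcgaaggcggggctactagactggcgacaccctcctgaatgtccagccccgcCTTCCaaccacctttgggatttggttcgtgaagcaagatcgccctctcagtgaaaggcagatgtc
Itga2: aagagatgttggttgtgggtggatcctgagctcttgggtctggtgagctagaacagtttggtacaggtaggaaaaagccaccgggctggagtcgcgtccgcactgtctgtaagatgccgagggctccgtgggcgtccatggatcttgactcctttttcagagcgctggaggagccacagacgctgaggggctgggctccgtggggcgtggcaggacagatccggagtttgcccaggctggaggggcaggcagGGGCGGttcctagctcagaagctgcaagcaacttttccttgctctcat
The Itga5 stretch held 1 match to GGAAG and 2 to GGGCGG, the Itga1 stretch 2 to GGAAG, and the Itga4 and Itga2 stretches 1 each to GGGCGG. None of the 4 held ACAAAG or TATAAA. Among 27025 genes of the table, 71.1% held GGAAG in such a stretch, 18.7% ACAAAG, 14.2% TATAAA and 35.9% GGGCGG. A match is a match of letters only.

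The vascular, neural and muscle classes of whole mesenchyme differed in which integrins and cadherins stood highest. These classes come from 1 library, so their levels are described with exact Poisson 95% intervals, which cover counting error only, and are not tested. Free RNA was gauged for each class from transcripts the class was taken to lack, and put 6.91% or less of the RNA of the 3 fibroblast-type classes, 5.69% of that of glia, 13.4% to 15.3% of that of blood endothelium, lymphatic endothelium and muscle and 23.2% of that of pericytes at background. Muscle cells and pericytes carried the Adamdec1 panel at 8590 and 2830 CPM, against 8150 CPM in background. Their shares, gauged on a fibroblast transcript, are therefore uncertain. Among members with 10 or more UMIs in these classes, all but Cdh5 in Adamdec1 fibroblasts and Itga11 in blood endothelium lay above the level this background would give. No such gauge was had for the fibroblasts of the GFP-low libraries.

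**Figure D1:**
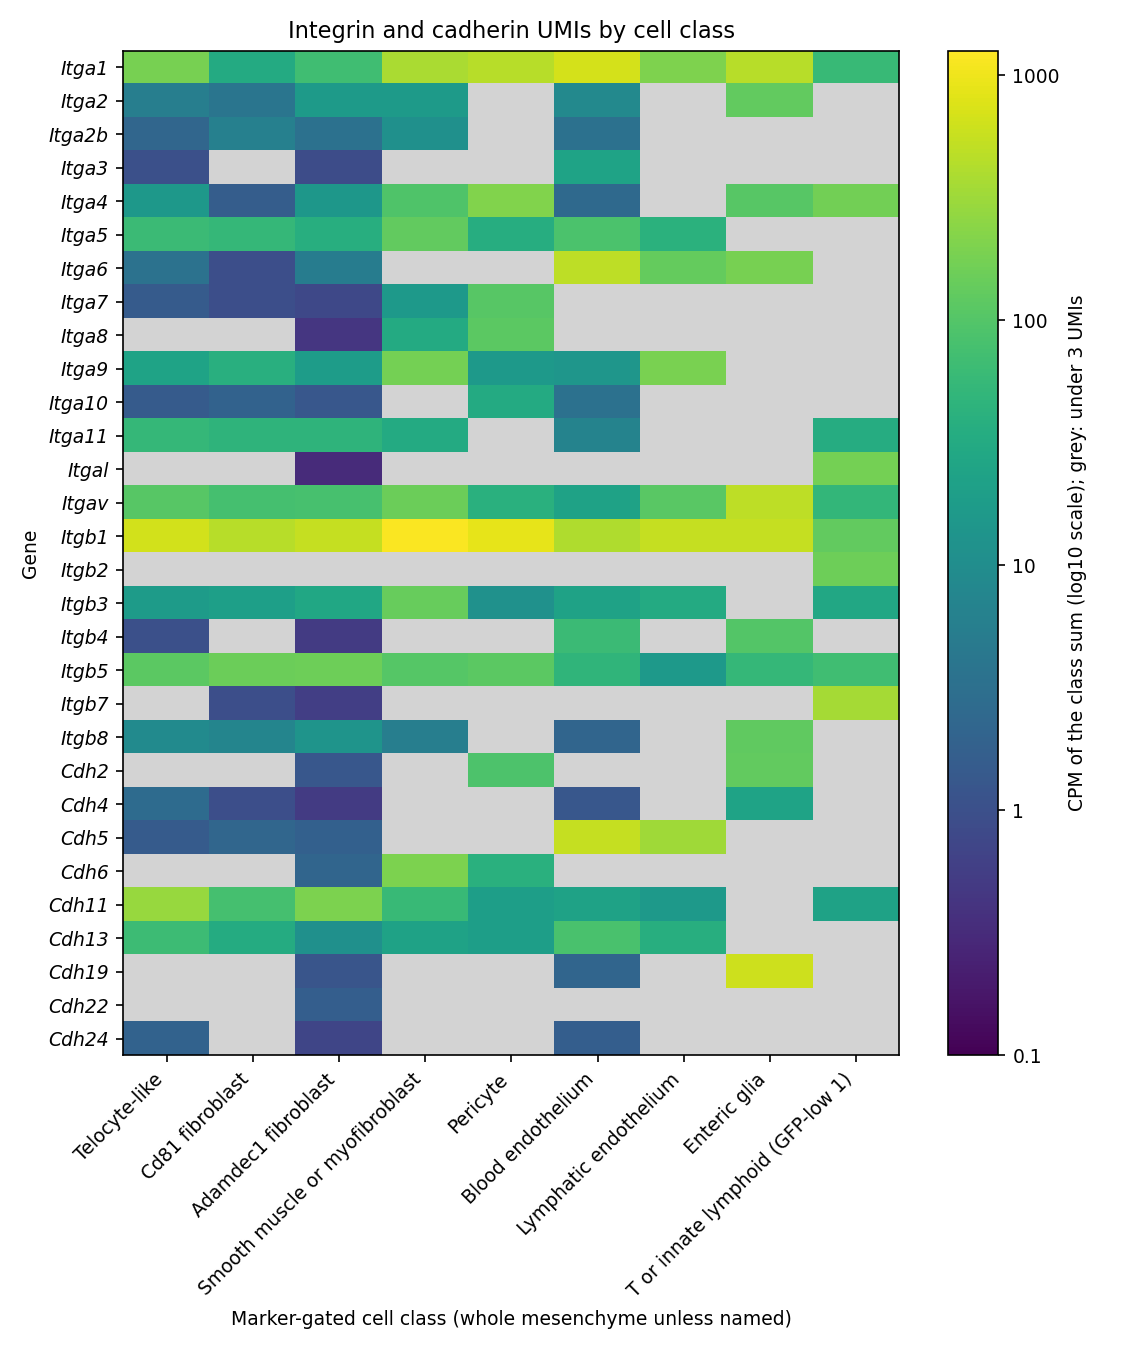
Level of the 30 members with at least 10 UMIs in 1 class, by cell class, as CPM on a log10 colour scale; grey cells had fewer than 3 UMIs. Columns are classes of whole mesenchyme, except T or innate lymphoid cells, which are from GFP-low replicate 1. Itgb1 is bright in every column, while Cdh19 is bright in glia alone, Cdh6 mainly in muscle, Cdh5 in both endothelia and Itgb2, Itgb7 and Itgal in lymphoid cells.

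Blood endothelium was led by an alpha chain rather than by Itgb1. Itga1, a collagen and laminin receptor chain, stood at 697 CPM (664 to 732), Cdh5 (VE-cadherin, the cadherin of endothelial junctions) at 559 CPM (529 to 590), Itga6, a laminin receptor chain, at 496 CPM (468 to 525) and Itgb1 at 410 CPM (385 to 437). Itga5, the fibronectin receptor chain, and Cdh13 (T-cadherin, a cadherin anchored by lipid that lacks an intracellular tail) followed at 85.9 and 84.6 CPM. Itgb4, the laminin receptor chain best known from epithelial hemidesmosomes, reached 62.4 CPM (52.7 to 73.4), so that both chains of the Itga6 and Itgb4 pair were present, against at most 0.985 CPM in the 3 fibroblast-type classes. Cdh5 gave 83.1% of the cadherin UMIs of the class. Glia and pericytes also held Itga1, and lymphatic endothelium Cdh5, and 0 of 15 members with 10 or more UMIs were 4-fold above every other class, where 0.761% of all genes at that count were.

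Lymphatic endothelium shared Cdh5 at 322 CPM (246 to 414) and differed in its alpha chains. Itga9, a receptor chain for tenascin-C and VCAM-1 that is needed for lymphatic valves in mice, stood at 190 CPM (133 to 263), against 14.5 CPM (10.1 to 20.3) in blood endothelium. Itga6 and Itga1 were at 137 CPM (89.7 to 201) and 206 CPM (146 to 282), both below blood endothelium with intervals that did not overlap. Itgb1 was at 555 CPM and Itgav at 111 CPM. None of the 6 members with 10 or more UMIs was 4-fold above every other class, where 2.04% of all genes of the class were.

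Enteric glia, the peripheral glia of the gut wall, had the broadest set for their small number of cells. Cdh19, a cadherin of glial precursors and Schwann cells, was the highest member at 605 CPM (493 to 735); muscle, pericytes, telocyte-like cells and lymphatic endothelium had no Cdh19 UMI, and the class was at least 38.2-fold above the next one, taken at 3 counts per class. Itgav stood at 485 CPM (385 to 603) and Itgb8, its partner in a receptor that activates latent TGF-beta, at 126 CPM (77.9 to 192), against 13.3 CPM (11.5 to 15.2) in Adamdec1 fibroblasts. Itga2, a collagen receptor chain, was at 132 CPM (82.6 to 200), 7.63-fold above muscle, the next class. Itgb1 was at 545 CPM, Itga1 at 455 CPM, Itga6 at 180 CPM and Cdh2 (N-cadherin) at 132 CPM (82.6 to 200). Those 3 members at or above 4-fold (Cdh19, Itga2 and Itgb8) were 3 of the 10 with 10 or more UMIs in glia; over all genes of glia at that count 5.22% were that far above every other class. With 37 cells, members of glia at low levels were not detectable at this depth.

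Muscle cells had the highest Itgb1 of all classes, at 1180 CPM (1100 to 1270), and a cadherin that was low elsewhere. Cdh6 (K-cadherin) stood at 196 CPM (164 to 232), 4.91-fold above pericytes at 39.9 CPM (19.1 to 73.4), and at 2.19 CPM or less in the 3 fibroblast-type classes. Itgb3, which with Itgav forms a vitronectin receptor, was at 138 CPM (112 to 169), 4.36-fold above lymphatic endothelium at 31.7 CPM on 6 UMIs. Itga9 was at 174 CPM, Itgav at 153 CPM and Itga1 at 380 CPM. The 2 members at or above 4-fold compare with 0.17% of all genes of muscle at 10 or more UMIs. As stated above, these cells also carried the Adamdec1 panel, and the part of mixed droplets in these levels was not tested.

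Pericytes, the contractile cells that wrap small vessels, combined Itgb1 at 890 CPM (777 to 1020) and Itga1 at 455 CPM (375 to 547) with 3 less widespread alpha chains. Itga4, a receptor chain for VCAM-1 and fibronectin, was at 212 CPM (158 to 277), Itga8, a nephronectin receptor chain, at 116 CPM (77.5 to 166) and Itga7, a laminin receptor chain known from muscle, at 108 CPM (71 to 157). Itga8 and Itga7 were next highest in muscle, at 31.7 CPM (19.9 to 48) and 15.8 CPM (7.91 to 28.3). Itga7 was the 1 pericyte member at or above 4-fold, where 1.06% of all genes of pericytes were. Itgb5 was at 116 CPM (77.5 to 166). Pericytes had Cdh2 at 91.8 CPM (58.2 to 138), and muscle cells had 0 UMIs of Cdh2.

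The 3 fibroblast-type classes had Itgb1 as their highest member and Itgb5 (which pairs with Itgav in a vitronectin receptor) and Cdh11 (the mesenchymal OB-cadherin) among the next. As in both endothelia, 0 of their members were 4-fold above every other class, a count near the share over all genes, which was 0.118% in telocyte-like cells, 0.258% in Cd81 and 0.00784% in Adamdec1 fibroblasts. Itgb1 stood at 651 CPM in telocyte-like cells, 460 CPM in Cd81 and 559 CPM in Adamdec1 fibroblasts. Itgb5 stood at 115, 153 and 158 CPM in the same order of classes, and Cdh11 at 294 CPM (277 to 311), 77.2 CPM (67.7 to 87.7) and 194 CPM (187 to 201), with intervals that did not overlap. Itgav stood at 108, 76.6 and 81.3 CPM, Itga11 (a fibroblast collagen receptor chain) at 53.2, 45.7 and 45.6 CPM and Itga1 at 185, 31.8 and 70.3 CPM, again in that order. Cdh13 was at 64.2 CPM in telocyte-like cells and Itga5 at 53.2 CPM in Cd81 fibroblasts.

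The balance of alpha chains to Itgb1 differed by class. The UMIs of the 12 alpha chains that can pair with beta 1 were summed and divided by the UMIs of Itgb1; the ratio counts molecules captured at their 3' ends and is not a ratio of proteins. It was 3.32 (3.09 to 3.57) in blood endothelium, 2.53 (1.97 to 3.26) in glia, 1.24 (0.95 to 1.62) in lymphatic endothelium and 1.16 (0.967 to 1.4) in pericytes. It was 0.875 (0.79 to 0.968) in muscle, 0.709 (0.667 to 0.752) in telocyte-like cells, 0.556 (0.509 to 0.607) in Cd81 and 0.524 (0.506 to 0.544) in Adamdec1 fibroblasts. All these values are from whole mesenchyme. Neighbours in this order whose exact 95% intervals overlapped were blood endothelium with glia, lymphatic endothelium with pericytes, pericytes with muscle (0.967 below 0.968), and Cd81 with Adamdec1 fibroblasts. Itga1 gave the largest part of the alpha sum in blood endothelium (51.2%), pericytes (44%), telocyte-like cells (40.1%), muscle (36.8%) and lymphatic endothelium (30%), and Itgav in glia (35.2%), Cd81 (29.9%) and Adamdec1 fibroblasts (27.7%). In GFP-low replicates 1 and 2 the ratio was 0.666 (0.643 to 0.69) and 0.525 (0.51 to 0.54) in Cd81 fibroblasts. For Adamdec1 fibroblasts it was 0.456 (0.428 to 0.485) and 0.389 (0.369 to 0.41) there. Intervals of the 2 classes did not overlap within either replicate. Nor did the Cd81 intervals of the 2 replicates overlap, so libraries differed beyond counting error.

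**Figure D2:**
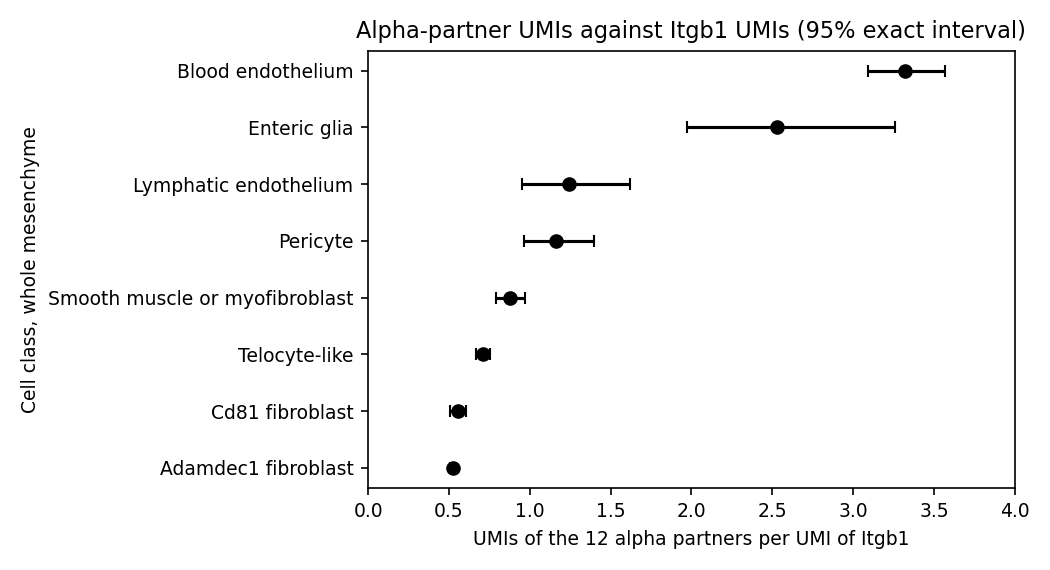
UMIs of the 12 alpha partners per UMI of Itgb1 in each class of whole mesenchyme, with exact 95% intervals. Blood endothelium (3.32) and glia (2.53) lie right of all other classes, and the 3 fibroblast-type classes lie between 0.524 and 0.709.

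Of 24 textbook pairs, both chains reached 50 CPM, with 10 or more UMIs and above background, for 7 in glia and 7 in muscle, 5 in telocyte-like cells, 4 each in pericytes and the 2 endothelia, and 3 in each of the Cd81 and Adamdec1 fibroblasts. Itgav with Itgb8 met this in glia alone among the classes of whole mesenchyme and Itgav with Itgb3 in muscle alone. Itga7 and Itga8 with Itgb1 met it in pericytes alone, and Itga6 with Itgb4 in blood endothelium and glia. Transcripts of both chains do not show that the pair is on the cell surface.

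The 41 T or innate lymphoid cells of GFP-low replicate 1 carried the leukocyte integrins Itgb7, Itgal and Itgb2, which were at 4.89 CPM or less in the fibroblasts of that library. Itgb7, whose pair with Itga4 binds the gut homing ligand MAdCAM-1, stood at 354 CPM (272 to 454), Itgal (the alpha chain of LFA-1) at 177 CPM (120 to 251), Itga4 at 171 CPM (116 to 245) and Itgb2 (the beta chain of LFA-1) at 154 CPM (102 to 224). Itgae, which with Itgb7 binds E-cadherin, had 7 UMIs, or 40 CPM (16.1 to 82.4). Itgb1 was at 131 CPM (83.3 to 197), with 39.6 CPM attributable to background, and Itgb5 at 68.6 CPM (35.4 to 120), with 14.1 CPM. Itga4 was high in other classes too, at 212 CPM in pericytes of whole mesenchyme. The Cd81 and Adamdec1 fibroblasts of the same library had Itgb7 at 1.16 and 4.89 CPM.

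Cd81 fibroblasts, a type known from below the crypts, were then compared with Adamdec1 fibroblasts, a type of the lamina propria, within each of the 3 libraries. Of 18 members that passed the filter on low counts, 4 were higher in Cd81 fibroblasts and 8 were lower, and the other 31 members were too low to test; over all 12315 genes tested, 14.6% were higher and 15.2% lower, 29.8% in all (edgeR's quasi-likelihood test with library as a block, Benjamini-Hochberg adjusted p under 0.05 over all genes). This fit and that of Pi16-positive cells below each leave 2 residual degrees of freedom. Their p-values thus rest largely on a spread that edgeR pools over all genes, not on each gene's own spread over 3 libraries. The median log2 difference of the 18 members was -0.36, against -0.0045 over all genes. The members that were higher are Itga9 (tenascin-C and VCAM-1), Itga5 (fibronectin), T-cadherin and the platelet chain Itga2b. The alpha chains that were lower are Itga1 (collagen and laminin), Itga2 (collagen), Itga6 (laminin) and Itga4 (VCAM-1 and fibronectin). Itgb1, Itgb8 and the cadherins Cdh11 and Cdh22 were also lower. Receptor chains for VCAM-1 and for fibronectin were thus found in both directions.

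Cdh13 had 33.4, 57.4 and 40.7 CPM in Cd81 fibroblasts of whole mesenchyme and GFP-low replicates 1 and 2, against 11.6, 12.7 and 5.13 CPM in Adamdec1 fibroblasts. Its log2 difference was 2.25 ± 0.24 (SE, 3 libraries; edgeR adjusted p = 0.00013). Itga9 had 38, 42 and 46.6 CPM in Cd81 fibroblasts, against 18.5, 10.3 and 16.9 CPM in Adamdec1 fibroblasts, a log2 difference of 1.57 ± 0.18 (edgeR adjusted p = 0.0002). The groups did not overlap for either gene, and each of the 3 libraries showed the difference.
Itga5 had 53.2, 48.9 and 40.8 CPM in Cd81 fibroblasts, against 36.6, 31.9 and 25.8 CPM in Adamdec1 fibroblasts, a log2 difference of 0.70 ± 0.098 (edgeR adjusted p = 0.00076). All 3 Cd81 values were above all 3 Adamdec1 values. Itga2b, which forms the platelet fibrinogen receptor with Itgb3, was higher by 0.96 on the log2 scale, at 6.16 CPM or less in every library. Without GFP-low replicate 1, Itga2b and Itgb8 missed the threshold, with edgeR adjusted p of 0.053 and 0.055.

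Cdh11 had 77.2, 57.2 and 45.2 CPM in Cd81 fibroblasts, against 194, 159 and 193 CPM in Adamdec1 fibroblasts, a log2 difference of -1.56 ± 0.13 (edgeR adjusted p = 3.5e-05). Every Adamdec1 value was at least 2-fold above the Cd81 value of its library. Itga1 had 31.8, 25.3 and 25.5 CPM in Cd81 fibroblasts, against 70.3, 60.2 and 72.7 CPM in Adamdec1 fibroblasts, a log2 difference of -1.23 ± 0.095 (edgeR adjusted p = 2.1e-05). Itgb1 had 460, 380 and 436 CPM in Cd81 fibroblasts, against 559, 526 and 706 CPM in Adamdec1 fibroblasts, a log2 difference of -0.39 ± 0.10 (edgeR adjusted p = 0.018). For these 3 genes the groups did not overlap either, but the smaller difference of Itgb1 lost the threshold when either GFP-low replicate was left out, with edgeR adjusted p of 0.17 and 0.16.

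Itga4 and Itga2 lie under the 20 CPM asked of members given by library, and their library values are given because of what they showed. Itga4 had 1.62, 0.776 and 0.295 CPM in Cd81 fibroblasts, against 14.9, 19.1 and 19.4 CPM in Adamdec1 fibroblasts, a log2 difference of -4.87 ± 0.32 (edgeR adjusted p = 8.4e-06). In summed UMIs these were 30 against 484, an Adamdec1 to Cd81 ratio of CPM of 30.5 (21.1 to 45.7, exact interval, counting error only). After thinning each cell to 1000 UMIs, 0.183%, 0.118% and 0.0234% of Cd81 fibroblasts had an Itga4 UMI, against 1.81%, 2.03% and 1.61% of Adamdec1 fibroblasts; before thinning the shares were 0.914%, 0.443% and 0.211%, against 6.96%, 9.82% and 9.95%. In whole mesenchyme the Adamdec1 level of 14.9 CPM compares with 1 CPM attributable to background.
Itga2 had 3.89, 3.2 and 2.72 CPM in Cd81 fibroblasts, against 17, 7.43 and 8.87 CPM in Adamdec1 fibroblasts, a log2 difference of -1.52 ± 0.20 (edgeR adjusted p = 0.0006), without overlap. Itga6 and Itgb8, both at low levels, were lower, with log2 differences of -3.02 ± 0.51 and -0.63 ± 0.13. Cdh22 had 1 UMI in all Cd81 fibroblasts, against 50 UMIs in all Adamdec1 fibroblasts, an Adamdec1 to Cd81 ratio of 94.5 (16.2 to 3810), above that of Itga4 but with an interval that overlaps it. Itgav, Itgb5, Itgb3, Itga11, Itga7 and Itgb7 did not pass the test.

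**Figure D3:**
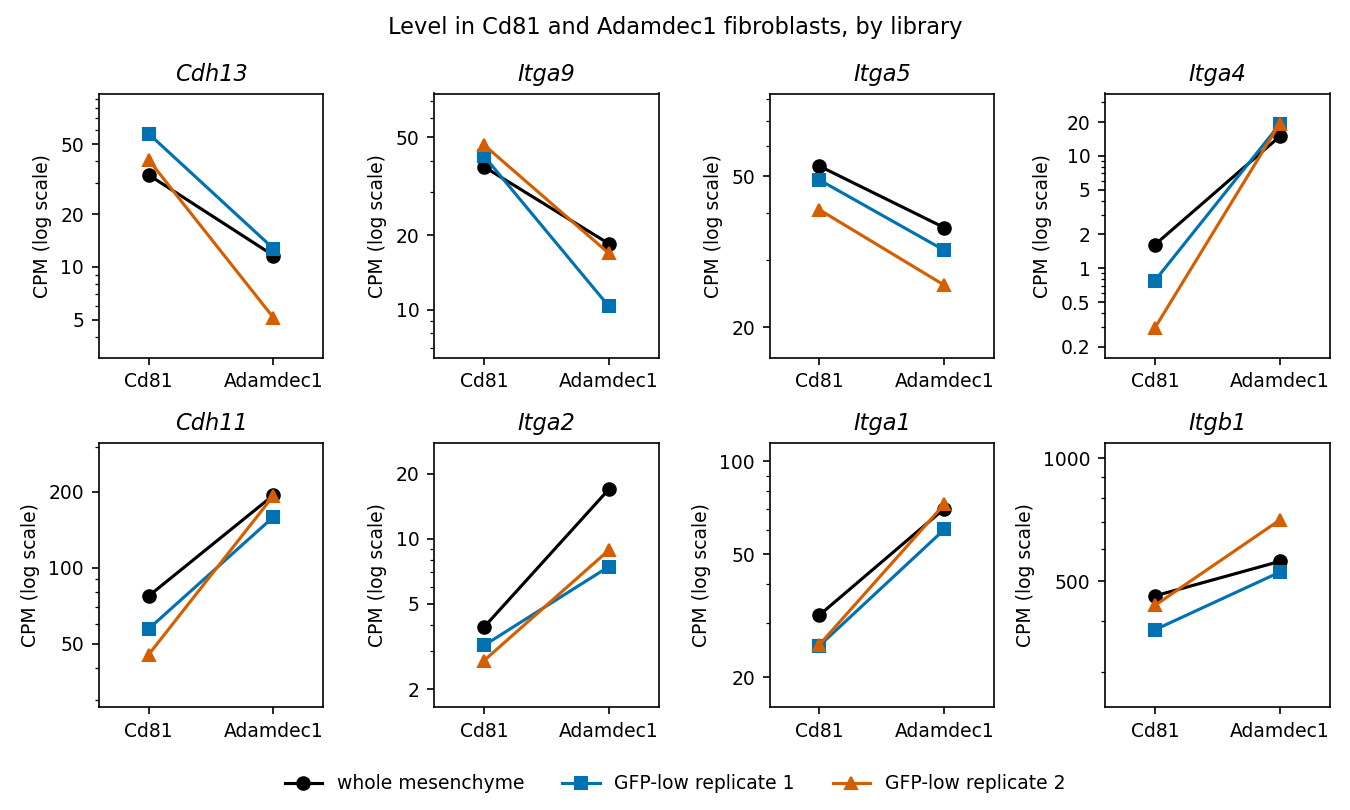
Level of 8 members in Cd81 and Adamdec1 fibroblasts in each library, in CPM on log axes that differ by panel; a line joins the 2 classes of 1 library, and there are 3 libraries. Cdh13, Itga9 and Itga5 slope down from Cd81 to Adamdec1 in every library, while Itga4, Cdh11, Itga2, Itga1 and Itgb1 slope up.

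Markers of other cells were also unevenly present. The telocyte-like panel stood at 430, 255 and 265 CPM in Cd81 and 332, 171 and 222 CPM in Adamdec1 fibroblasts, in the order below. The gate capped that panel in Adamdec1 fibroblasts. The panels given next went the other way. In Cd81 fibroblasts of whole mesenchyme and GFP-low replicates 1 and 2 the summed muscle panel stood at 103, 55.9 and 38.7 CPM, against 286, 288 and 226 CPM in Adamdec1 fibroblasts, with all 7 of its markers detected in both classes of whole mesenchyme. The blood endothelium panel stood at 26.9, 8.73 and 4.13 CPM in Cd81 fibroblasts, against 45, 20.4 and 8.32 CPM in Adamdec1 fibroblasts, the pericyte panel at 34.7, 29.7 and 20.7 CPM, against 69.9, 110 and 72.1 CPM, and the T cell panel at 0, 9.65 and 1.61 CPM, against 2.77, 36.3 and 16.9 CPM. The enteric glia panel stood at 110, 99.8 and 56.3 CPM in Cd81 fibroblasts, against 173, 275 and 195 CPM in Adamdec1 fibroblasts. Of its 5 markers, 3, 4 and 3 were detected in Cd81 and 5, 2 and 3 in Adamdec1 fibroblasts. Background held this panel at 119, 99.4 and 68.7 CPM, and the GFP-low libraries held no gated glia. Whether the fibroblasts express these markers themselves was not tested. Itga4, Itga6, Itga1, Itga2 and Itgb8 are high in one or another of these cell types, and the part of such RNA in their differences was not tested. Libraries also differed in depth, which only the thinned shares of Itga4 above hold fixed, and those for cells gated at full depth.

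The same contrast was set between the sorts, to ask whether the Cd81 to Adamdec1 difference differs between whole mesenchyme and the GFP-low libraries. These differ in sort and in labelled genotype together, which cannot be told apart, so sort stands for both here. In edgeR's test of the class by sort interaction, 0 of 12315 genes (0%) and 0 of 18 members passed, while 1262 genes and 3 members (Itga9, Itga11 and Cdh13) had an unadjusted p under 0.05. With a spread taken from the GFP-low pair alone, this does not show that the differences were alike. Within Cd81 fibroblasts, whole mesenchyme lay at least 2-fold above both GFP-low libraries for 0 of 18 members and at least 2-fold below for 1, Itga7, with 0.973 CPM on 3 UMIs in whole mesenchyme, against 2.72 and 2.2 CPM in GFP-low; over all genes 1.09% and 0.926% lay that far out. Within Adamdec1 fibroblasts 0 members lay that far above or below, where 1.63% and 1.78% of all genes did.

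Within Cd81 fibroblasts, Pi16-positive cells were compared with the others. Pi16 and Dpp4 are known as markers of progenitor-like fibroblasts near vessels. A cell counted as Pi16-positive with UMIs of at least 2 of the 5 markers Pi16, Dpp4, Sema3c, Anxa3 and Ackr3, 1 of them Pi16 or Dpp4, and with at least 4 UMIs and 1 per 1000 from these markers. This gave 63 Pi16-positive cells in whole mesenchyme and 577 and 420 in GFP-low replicates 1 and 2, so the whole mesenchyme side is small. Of 13 members tested, 6 were higher in Pi16-positive cells (Itga9, Itgb3, Itga11, Itgb5, Itgav and Itga5) and 3 were lower (Cdh13, Itga1 and Cdh11); over 10538 genes 8.09% were higher and 9.76% lower, 17.8% in all (edgeR, as above). The median log2 difference of the 13 was 0.31, against 0.0085 over all genes. The 6 that were higher hold both chains of the Itgav and Itgb3, Itgav and Itgb5 vitronectin receptors, and alpha chains for fibronectin, tenascin and fibrillar collagen.

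Itgb5 had 166, 255 and 159 CPM in Pi16-positive cells of whole mesenchyme and GFP-low replicates 1 and 2, against 151, 168 and 112 CPM in other Cd81 fibroblasts, a log2 difference of 0.46 ± 0.082 (edgeR adjusted p = 0.00049). Itgav had 97, 75.5 and 87 CPM in Pi16-positive cells, against 73.3, 61.2 and 59.8 CPM in the others, a log2 difference of 0.39 ± 0.080 (edgeR adjusted p = 0.0018). Itga9 had 47.3, 59.9 and 66.1 CPM, against 36.5, 37.9 and 44.1 CPM, a log2 difference of 0.57 ± 0.088 (edgeR adjusted p = 0.00013). For these 3 genes each library showed the difference, and for Itgav and Itga9 the groups did not overlap. In Pi16-positive cells of whole mesenchyme Itgb5, Itgav and Itga9 had 70, 41 and 20 UMIs.
Itgb3 was at 28.4, 29.4 and 18.9 CPM in Pi16-positive cells, against 19.6, 22.1 and 10.9 CPM in the others. Itga11 was at 37.8, 91.2 and 64.3 CPM in Pi16-positive cells, against 47, 58.7 and 44.3 CPM, so that whole mesenchyme went the other way on 16 UMIs. Itga5 was at 85.1, 58.9 and 46.6 CPM in Pi16-positive cells, against 48.1, 46.6 and 40 CPM. Their log2 differences were 0.54, 0.50 and 0.31.

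Cdh13 had 9.46, 30.5 and 21.5 CPM in Pi16-positive cells, against 37.2, 63.6 and 43.1 CPM in other Cd81 fibroblasts, a log2 difference of -1.10 ± 0.11 (edgeR adjusted p = 1.2e-06). Itga1 had 23.6, 13.3 and 12.2 CPM, against 33.1, 28 and 27.2 CPM, a log2 difference of -1.08 ± 0.14 (edgeR adjusted p = 2.4e-05). Cdh11 had 54.4, 32.6 and 32.6 CPM, against 80.8, 62.8 and 46.8 CPM, a log2 difference of -0.76 ± 0.10 (edgeR adjusted p = 3.7e-05). Each of the 3 libraries showed all 3 differences, and the groups did not overlap for Cdh13 and Itga1. In whole mesenchyme, however, the Pi16-positive values of Cdh13, Itga1 and Cdh11 rest on only 4, 10 and 23 UMIs. Cdh13 stood at 2.25 in Cd81 against Adamdec1 fibroblasts and at -1.10 here, and Itga9 at 1.57 and 0.57; the Pi16-positive cells enter both comparisons, which are therefore not independent. Of the members called higher, DESeq2 called 2, edgeR without GFP-low replicate 2 called 3 and edgeR on cells thinned to 1000 UMIs called 0, while the 3 lower calls stood in each of these.

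**Figure D4:**
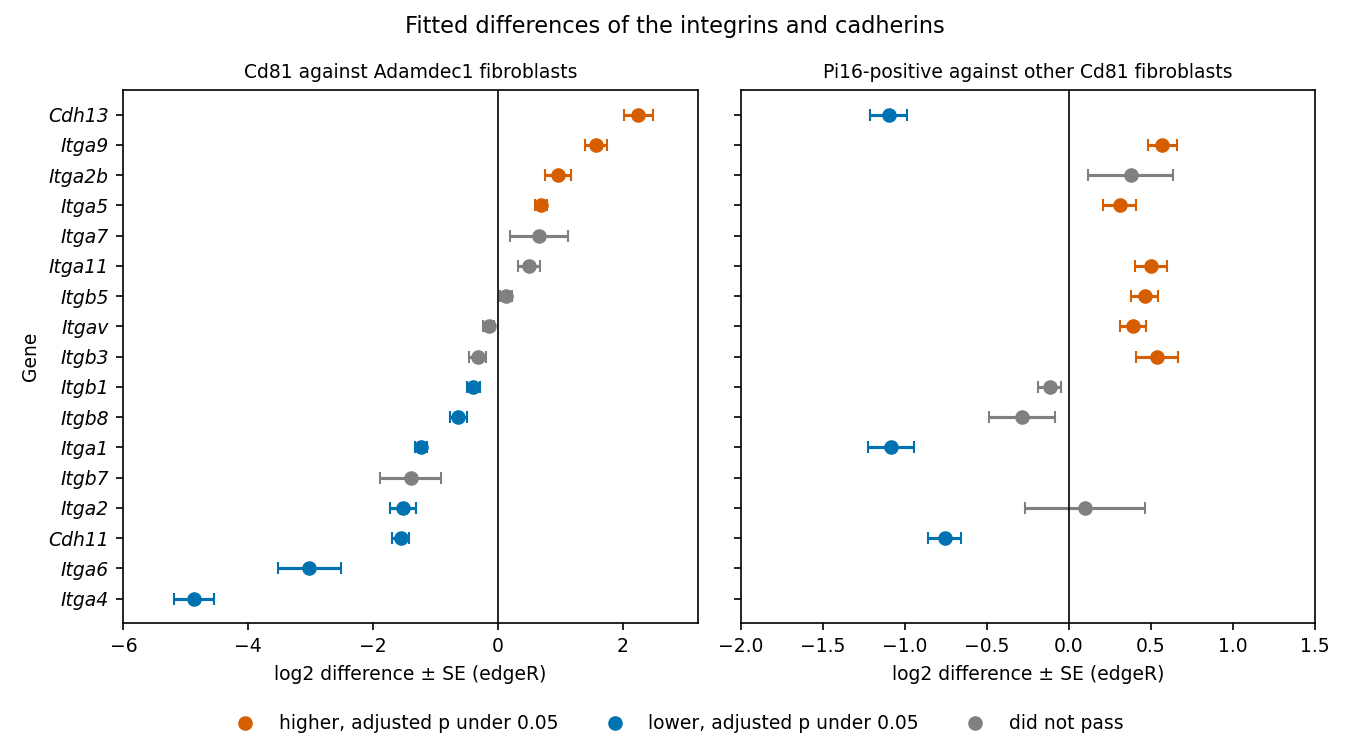
Fitted log2 differences ± SE of the members tested in Cd81 against Adamdec1 fibroblasts (left; Cdh22, on 1 UMI in Cd81 fibroblasts, is not drawn) and in Pi16-positive against other Cd81 fibroblasts (right), from edgeR over 3 libraries; the 2 axes have different ranges. Cdh13 lies at 2.25 on the left and -1.10 on the right, while Itga1 and Cdh11 lie below 0 on both sides.

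Telocyte-like cells were compared with Adamdec1 fibroblasts in the 2 libraries that held at least 10 of them, of which GFP-low replicate 1 had exactly 10. Of 15 members tested, 2 were higher in telocyte-like cells and 1 lower, where 3.79% of 11314 genes were higher and 5.28% lower, 9.07% in all (edgeR, as above, with 1 residual degree of freedom). edgeR pools the spread over all genes, so these p-values rest mostly on that pooled spread, not on each gene's spread between 2 libraries. Cdh13 had 261 and 4 UMIs in telocyte-like cells, against 181 and 75 UMIs in Adamdec1 fibroblasts, or 71.9 and 46.8 against 13.3 and 13.1 TMM-normalised CPM, a log2 difference of 2.35 ± 0.32 (edgeR adjusted p = 1.2e-11). Itga1 had 752 and 11 UMIs in telocyte-like cells, against 1093 and 357 UMIs, or 207 and 129 against 80.1 and 62.6 TMM-normalised CPM, a log2 difference of 1.28 ± 0.30 (edgeR adjusted p = 0.00036). Itga2 was called lower, by -1.51 ± 0.51, but 1 of the 2 libraries had the other sign, on 1 UMI. Cdh11, at 294 CPM in telocyte-like cells and 194 CPM in Adamdec1 fibroblasts of whole mesenchyme, did not pass (edgeR adjusted p = 0.29). In counts simulated for this comparison with the same spread for every gene, the fit found 2.99% of 1.5-fold changes. It found 8.96% of 2-fold and 75.8% of 4-fold changes, so genes that did not pass here may still differ.

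The partners of these receptors inside and outside the cell were followed through 3 lists, 31 integrin adaptors and actin linkers, 18 catenins and cadherin partners and 41 integrin ligands, of which 2 ligands set a gate and were not tested. Values in these paragraphs are log2 differences from edgeR, each called at an adjusted p under 0.05 over all genes. Between Cd81 and Adamdec1 fibroblasts, 8 of 28 adaptors tested were higher and 9 lower, 2 of 14 catenins and partners were higher and 7 lower, and 12 of 31 ligands were higher and 12 lower, where 14.6% of all genes were higher and 15.2% lower. The median log2 differences were -0.095, -0.28 and 0.024, against -0.0045 over all genes. Among adaptors, Lims2 (PINCH2, which joins integrin-linked kinase to parvin) was higher by 3.52, Fyn, a Src-family kinase, by 1.00 and Tns1 (tensin 1) by 0.75. Ptk2b (the focal adhesion kinase relative Pyk2) was lower, at -1.59, as were Actn1 (alpha-actinin 1) at -1.18 and Kank1 at -1.13. Ptk2b had 8, 24 and 17 UMIs in Cd81 fibroblasts of whole mesenchyme and GFP-low replicates 1 and 2, against 45, 23 and 24 UMIs. In whole mesenchyme it stood at 2.59 in Cd81 and 2.88 in Adamdec1 fibroblasts, in TMM-normalised CPM.
Among cadherin partners the receptor phosphatases Ptprm and Ptprk were lower, at -1.69 and -1.30, and Nectin2 at -0.99, while Nectin1 and Nectin3 were higher by 0.55 and 0.41. Among ligands, differences upward included Vtn (vitronectin, 3.83, on 6, 48 and 27 UMIs in Cd81 and 4, 0 and 0 UMIs in Adamdec1 fibroblasts) and Lamb2 (a laminin chain, 1.83). The largest downward were the laminin chains Lama1 (-5.28) and Lama5 (-3.40) and Vwf (-2.81), the last with 0, 6 and 10 UMIs in Cd81 and 34, 10 and 19 UMIs in Adamdec1 fibroblasts. Lama5 had 5, 5 and 3 UMIs in Cd81 and 127, 23 and 14 UMIs in Adamdec1 fibroblasts. Vwf is an endothelial product, the endothelium panel moved with it as given above, and its part in this difference was not tested. Laminin chains were found in both directions. Vcam1, the ligand of the Itga4 and Itga9 receptors, was lower in Cd81 fibroblasts, at -1.46.

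Between Pi16-positive and other Cd81 fibroblasts, 10 of 27 adaptors were higher and 3 lower, 1 of 14 catenins and partners was higher and 2 lower, and 10 of 27 ligands were higher and 6 lower. Over all genes 8.09% were higher and 9.76% lower, so the count of catenins and partners was near that share. The lists had median log2 differences of 0.18, 0.097 and 0.016, against 0.0085 over all genes. Lims2 (1.11), Zyx (zyxin, 0.61) and Cib1 (0.50) led the adaptors upward, and Actn1 (-0.87), Tns3 (-0.66) and Bcar1 (-0.47) downward. For Actn1 and Bcar1 whole mesenchyme went the other way, on 17 and 8 UMIs in Pi16-positive cells. There Actn1 stood at 38.78 against 31.85 and Bcar1 at 18.25 against 16.3 TMM-normalised CPM. Nectin1 was higher by 0.54, and Ctnnal1 and Ptprk lower, at -1.50 and -1.06. Fn1 (fibronectin, 1.05) and Fbn1 (fibrillin 1, 1.04) were among the ligands that were higher, and Tnc (tenascin-C, -1.80), Emilin1 (-0.68) and Vcam1 (-0.67) led those that were lower. Fn1 stood at 1852, 2328 and 2435 TMM-normalised CPM in Pi16-positive cells of whole mesenchyme and GFP-low replicates 1 and 2, against 1010, 1068 and 1120 in the others, without overlap.

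Between telocyte-like cells and Adamdec1 fibroblasts, 1 of 29 adaptors was higher and 1 lower, 0 of 14 catenins and partners were higher and 1 lower, and 3 of 29 ligands were higher and 6 lower. Over all genes 3.79% were higher and 5.28% lower, and the counts of adaptors and of catenins and partners were near those shares. The lists had median log2 differences of 0.24, 0.18 and -0.38, against -0.025 over all genes. Actn1 was higher by 1.16, Fyn lower at -1.82 and Ptprm lower at -0.98. Npnt (nephronectin, the ligand of the Itga8 receptor) had 119 and 2 UMIs in telocyte-like cells, against 5 and 0 UMIs in Adamdec1 fibroblasts of whole mesenchyme and GFP-low replicate 1. Lama5 (2.22) and Lama4 (1.13) were the other ligands called higher, although Lama5 had 0 UMIs in the 10 telocyte-like cells of GFP-low replicate 1. Vcam1 (-3.13), Svep1 (an Itga9 ligand, -2.62) and Postn (periostin, -2.42) led the ligands downward.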

How the data were processed

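Unfiltered matrices of UMI counts from 3 single-cell libraries (10x 3' chemistry, 8000 cells loaded per library) were used; per the submitters' processing notes, the authors made the deposited counts with Cell Ranger 3.0.2 on mm10. All values are whole numbers. The other 30 samples of the series were not analysed here. Library totals were 41863444 UMIs for whole mesenchyme and 39190629 and 52313765 for the GFP-low pair.

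Cells were gated with a rule on marker panels that was set after looking at the panels and without looking at members. It asked for at least 3 distinct panel markers, 4 panel UMIs and 2 panel UMIs per 1000 (5 for muscle). The Adamdec1 gate asked for 4 panel UMIs, 4 per 1000 and under 1 telocyte panel UMI per 1000, without the distinct markers. Cd81 and Adamdec1 fibroblasts also needed their panel at least 2-fold above the other's. Telocyte-like cells needed under 2 Cd81 panel UMIs per 1000. These 3 needed 2 fibroblast markers and took no cell meeting a non-fibroblast gate. Cells meeting both endothelial gates were called lymphatic, and cells meeting the muscle and pericyte gates pericytes. Other cells meeting several non-fibroblast gates, or 1 with the telocyte-like gate, were left out. Doublets were treated by leaving out the 6% of cells with the highest Scrublet scores, as an alternative (scanpy 1.11.5). Counts were summed per library and class (at least 10 cells for a test, 20 for a level) and tested with edgeR 4.0.16 (filterByExpr, TMM, quasi-likelihood) with library as a block, since both classes of a comparison come from the same library; p-values were adjusted over all genes by the Benjamini-Hochberg method. A standard error is the log2 difference over the square root of F. DESeq2 1.42.0 was an alternative. Background was taken from barcodes under 100 UMIs, scaled for each class by fibroblast transcripts (endothelial transcripts for fibroblasts). Intervals are exact and, like floors of 3 counts, cover counting error only. The fits were tested on simulated data. Cd81 fibroblast counts of both GFP-low replicates were compared (chi-square over degrees of freedom of 186, 12970 genes) and differ beyond counting noise.

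Per-library values are given for up to 8 members per direction with at least 20 CPM in either class; per class up to 6 of the highest members and those at least 4-fold above every other class are named; per list up to 3 per direction. Beyond this rule, Itga4 and Itga2 (by library) and Vcam1 in Cd81 against Adamdec1 fibroblasts were chosen after their values were seen. 1 item of the lists is not reported here. Members and lists were chosen with earlier results of these data known.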

Additional observations from a re-analysis of the deposited data

How the results depend on the processing

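Of 60 counts of called members recomputed under alternatives, 46 stayed within 1.5 times the main count; of 417 member differences 363 kept direction and call, 40 lost the call, 6 gained it and 8 changed sign, and all 18 levels moved by less than their interval. The 8 belong to members that did not pass the test in either setting: Itga7 between Cd81 and Adamdec1 fibroblasts (log2 0.66) at -0.0018 without GFP-low replicate 1; Itga2 between Pi16-positive and other Cd81 fibroblasts (0.099) at -0.057 with stricter cell limits, -0.028 with a stricter gate, and -0.16 and -0.0062 without GFP-low replicate 1 or whole mesenchyme (0.46 without GFP-low replicate 2); and, between telocyte-like cells and Adamdec1 fibroblasts, Itga4 (0.058) at -0.030 without the block and -0.72 thinned, and Itgb1 (0.19) at -0.069 thinned. Library paired the classes by design, and without this replicate block the Pi16-positive comparison called 0 members higher and 0 lower, against 6 and 3 with it; the telocyte-like comparison called 1 higher and 0 lower, and Cd81 against Adamdec1 fibroblasts 3 higher and 6 lower. Thinning cells to 1000 UMIs, which left fewer members tested, gave 5 lower for Cd81 against Adamdec1 fibroblasts, 0 higher for Pi16-positive cells, and 1 higher and 0 lower for telocyte-like cells. DESeq2 gave 2 higher for Pi16-positive cells, and 1 higher and 0 lower for telocyte-like cells. Without a filter on low counts the telocyte-like comparison called 2 lower, and the class by sort interaction called 1 lower, with 54 genes higher and 277 lower over all. With RLE size factors that interaction called 0 members and 19 genes, all lower. Beyond these alternatives' own construction, the cause was not tested.

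Leaving out 1 library at a time gave 3 to 5 higher and 6 to 10 lower for Cd81 against Adamdec1 fibroblasts, and 3 to 5 higher and 3 lower for Pi16-positive cells. There, Itga5 lost its call whichever library was left out, Itga11 without GFP-low replicate 1, and Itgav and Itgb3 without GFP-low replicate 2. For telocyte-like cells, leaving out a library, stricter gates and cell limits and a 20-cell minimum were not run, since too few cells or libraries remained. Classes under 100 cells limit what depth can show.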

Other observations

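A few members at low levels were uneven between libraries; they were chosen after their values were seen and are given as values. Cdh9 had 30 UMIs in Cd81 fibroblasts of GFP-low replicate 2, or 0.984 CPM (0.664 to 1.4), 3 UMIs (0.146 CPM) in GFP-low replicate 1 and 0 in whole mesenchyme, which allows up to 0.973 CPM there. Cdh17 (LI-cadherin, known from gut epithelium) had 20 of its 26 UMIs in GFP-low replicate 2. In Adamdec1 fibroblasts Itgb7 stood at 0.579 CPM in whole mesenchyme, 4.89 CPM (3.28 to 7.03) in GFP-low replicate 1 and 0.693 CPM in GFP-low replicate 2. The T cell panel of these fibroblasts was at 2.77, 36.3 and 16.9 CPM in the same order, and its part in the Itgb7 level was not tested.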
